A study of Homo sapiens with 131 samples.

Results

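The bins described here are the 40-kb stretches of the human genome that were replicated in some mid-S-phase HAP1 cells and not yet in others. A bin was taken when 40% to 60% of the cells with a call held it in the 2-copy (replicated) state, with at least 28 called cells, on chromosomes 2, 3, 5, 7, 9, 10, 11, 12, 14, 16 and 20. This gave 4032 bins, or 161 Mb, out of 36142 bins on these 11 chromosomes (11.2%) and 56881 bins in the whole table (7.09%). They are called variable bins below. Because the 2-copy share itself chose them, that share is a description and carries no test. Of the other bins, 17920 were 2-copy in over 60% of cells (early bins) and 14190 in under 40% (late bins).

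HAP1 is a human line derived from a chronic myeloid leukaemia line and is nearly haploid, so a locus has 1 copy before its replication and 2 copies after it. The study sorted single mid-S cells and, with a method named scRR-seq (here in its scRR1 version), sequenced the DNA and the RNA of each cell as separate libraries. The labels list 63 mid-S cells, without treatment, and the tables hold 56 of them, all from 1 biological experiment. The other 7 mid-S cells and 5 G1 DNA libraries were not analysed here, and p-values and standard errors cover only the spread between these cells.

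Replication of a mammalian genome follows a programme in time. Origins fire in clusters, neighbouring origins fire at similar times, and forks then travel outward until they meet forks from the next cluster. Gene-rich, transcribed chromatin of high GC content tends to replicate early, and gene-poor chromatin at the nuclear periphery late. Between these lie transition regions, through which forks run from early into late chromatin, and domains of intermediate timing. In mid-S-phase such places can be found copied in one cell and not in the next.

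The promoter sequences of 4 genes that start in variable bins are shown because they span the range of RNA levels met in these bins. RPS7, a protein of the small ribosomal subunit, and NDUFB4, a subunit of respiratory complex I, had the highest median TPM (a level per transcript length, scaled to a fixed total in each cell) among genes of variable bins. ISL1, a transcription factor of motor neuron and heart development, is the protein-coding gene of the longest run of variable bins, and SCN1A, a neuronal sodium channel, lies in the second longest and had a median TPM of 0. Each sequence covers the bases from 250 to 71 before the RefSeq start, in GRCh38.p14 coordinates and on the strand of the gene, and CG dinucleotides are in capitals.
RPS7, chr2:3575010-3575189, plus strand: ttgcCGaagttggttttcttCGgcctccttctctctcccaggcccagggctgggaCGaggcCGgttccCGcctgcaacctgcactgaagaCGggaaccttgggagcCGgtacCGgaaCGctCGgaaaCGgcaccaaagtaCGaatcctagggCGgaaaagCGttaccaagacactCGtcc
NDUFB4, chr3:120596086-120596265, plus strand: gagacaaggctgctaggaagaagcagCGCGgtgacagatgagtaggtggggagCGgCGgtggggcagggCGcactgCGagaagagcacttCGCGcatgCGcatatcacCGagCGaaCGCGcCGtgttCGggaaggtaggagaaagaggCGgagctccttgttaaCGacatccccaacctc
ISL1, chr5:51383198-51383377, plus strand: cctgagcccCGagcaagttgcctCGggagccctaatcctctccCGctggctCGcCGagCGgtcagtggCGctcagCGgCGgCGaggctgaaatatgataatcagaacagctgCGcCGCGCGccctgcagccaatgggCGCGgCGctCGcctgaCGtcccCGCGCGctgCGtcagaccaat
SCN1A, chr2:166149232-166149411, minus strand: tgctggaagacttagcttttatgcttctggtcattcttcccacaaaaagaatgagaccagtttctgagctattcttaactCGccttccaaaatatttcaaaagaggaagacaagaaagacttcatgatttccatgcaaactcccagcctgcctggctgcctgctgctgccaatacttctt

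The 4 windows of 180 bases held 15, 17, 23 and 1 CG dinucleotides, in the order shown. Over the 1567 RefSeq promoters whose start lay in a variable bin, the median was 4 CG per window, against 9 over 11816 promoters in early bins and 2 over 4305 in late bins. At least 10 CG stood in 32.7% of the promoters in variable bins, in 48.3% of those in early bins, in 25.3% of those in late bins and in 41.4% of all 18817 on the 11 chromosomes. ISL1 shows that a CG-dense start in a variable bin can go with very little RNA: its TPM was above 0 in 28 of 56 cells, with a median of 0.225.

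The 56 cells were called in 96.7% to 99.6% of all bins, and the DNA read depth is unknown from these tables. Their replication score, which is the share of a cell's called bins that were 2-copy, ran from 39.7% to 67.2% with a median of 54.1%. Unspliced counts per cell totalled 425181 to 1353931. Cells numbered up to 65 (29 cells) and above 65 (27 cells) differed in mitochondrial RNA, 4.98% to 18.3% of TPM against 2.57% to 5.55%, and in mean replication score, 50.7% against 56.4%. Their mean unspliced totals were 837179 and 573830. The labels name no batch. Values within each set are given for the score relation, the RNA sums, the pooled copy-state difference and some named genes, and were not computed for agreement by distance, runs and RNA levels. All 6 S-phase and proliferation markers (PCNA, MCM2, TYMS, RRM2, MKI67, TOP2A) were above 0 in 56 of 56 cells, with medians of 158 to 718 TPM. All 6 blood-lineage markers (PTPRC, CD34, CD33, HBA1, HBG1, CD3E) had a median TPM of 0, with CD34 above 0 in 27 cells and CD3E in none. No 2 cells shared a DNA profile: the closest pair differed in 17.5% of bins.

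Variable bins were well covered. Of the 4032, 3465 were called in all 56 cells, the least covered was called in 43, and no bin of the 11 chromosomes fell under the minimum of 28. The share of variable bins per chromosome ran from 9.15% on chromosome 12 to 14.1% on chromosome 5. The bins did not pile up inside the limits: among bins called in all 56 cells, 331 were 2-copy in 23 cells and 325 in 33 cells, the last values inside, against 358 in 22 cells and 340 in 34 cells, the first values outside.

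The first question was how far the state of these bins follows the overall progress of the cell. Summed over a cell, the variable bins followed the score closely. The percent of called variable bins in the 2-copy state ran from 22.3% to 84.1% between cells, with a median of 49.7%. In the 19 cells with the lowest scores it was 22.3% to 41.6%, in the middle 18 cells 39.4% to 58.8%, and in the 19 highest 57.7% to 84.1%. The outer groups did not overlap, but the score that formed these groups includes the variable bins. Per point of the score over all bins that are not variable, the 2-copy share of variable bins rose by 2.39 points. The Pearson correlation over the 56 cells was 0.980 and Spearman's rho was 0.984, given as a description because both measures come from the same DNA library. The slope was 2.30 in cells up to 65 and 2.44 in later cells, with correlations of 0.971 and 0.986. The 2-copy share of early bins rose by 0.924 and that of late bins by 0.845 points per point of the score over all bins. Those classes were chosen by their 2-copy share and lay near the top and the bottom (medians over cells 89.1% and 12.4%). The choice of bins near an even split itself favours a steeper slope, so nothing is concluded from the different slopes. Around the line of the variable bins the residual SD was 3.50 points. The cells farthest from it were cell 51, whose variable bins lay 11.1 points above the line (30.2% 2-copy), and cell 18, with a residual of -8.54 points (39.4% 2-copy).

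**Figure D1:**
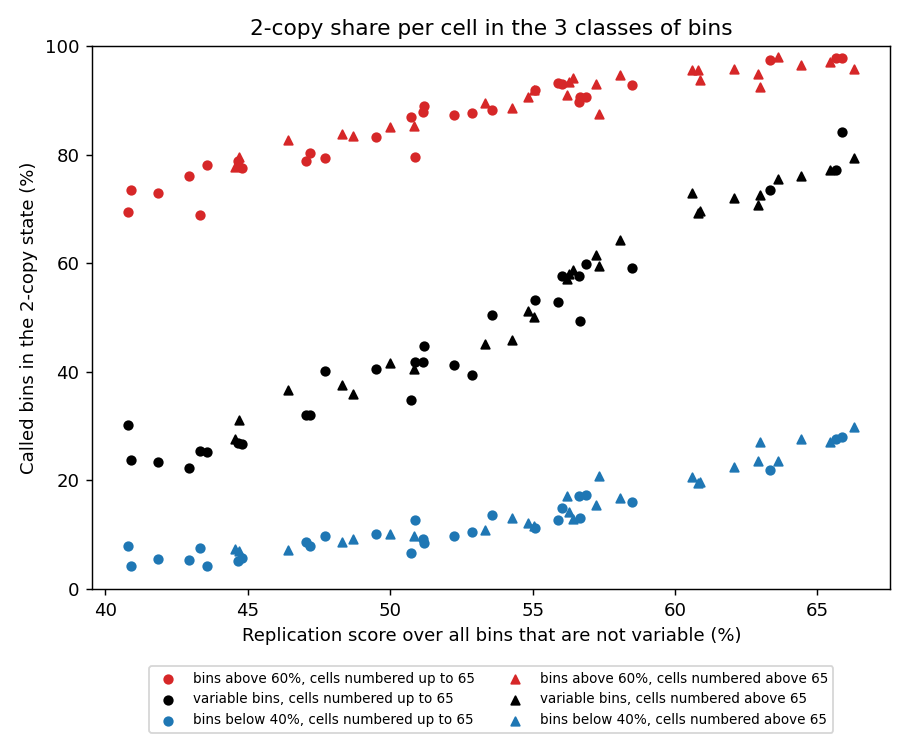
Each cell gives 3 points: the percent of called early bins (red), variable bins (black) and late bins (blue) in the 2-copy state, plotted against its replication score over all bins that are not variable. Circles are cells numbered up to 65 and triangles later cells. The black points run from 22.3% to 84.1%, the red points from 68.8% to 97.9% and the blue points from 4.29% to 29.8%. The 3 classes were chosen by their 2-copy share in these same cells, which in part fixes these ranges.

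Single variable bins followed the score loosely. The share per cell averages many bins and was read by a correlation, so its closeness to the score cannot be set against that of 1 bin. For each bin the probability that a 2-copy cell had a higher score than a 1-copy cell (AUC, 0.5 for no relation and 1 for a perfect order) was computed with the score taken from the other chromosomes. The median AUC was 0.703, and the middle 80% of bins lay between 0.580 and 0.814. An AUC of at least 0.9 was reached by 13 bins, 1963 bins were under 0.7, and 75 bins were under 0.5, where the 1-copy cells had the higher scores. With only cells up to 65 or only later cells, 277 and 273 bins were under 0.5. The SD over bins was 0.119 and 0.118 there, against 0.089 with all cells. How much of the spread between bins comes from the limited number of cells was not tested. Within each set of cells the median was 0.70. Bins at 20% to 40% and at 60% to 80% were close to these, with medians of 0.695 and 0.719, so a loose relation is not particular to the variable bins.

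The same can be put as a count of cells. If in each bin the cells with the highest scores were taken to be the 2-copy ones, as many as were observed, a median of 35.7% of called cells would have the wrong state (10th to 90th percentile 25% to 43.6%). The median would be 49.4% if state and score were unrelated. Cells next to each other in score, with a median gap of 0.365 points, had the same state in a median of 53.7% of variable bins (55 pairs, 42.5% to 72.3%). The choice of bins near an even split itself holds this value low, and no comparison with other bins is made.

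**Figure D2:**
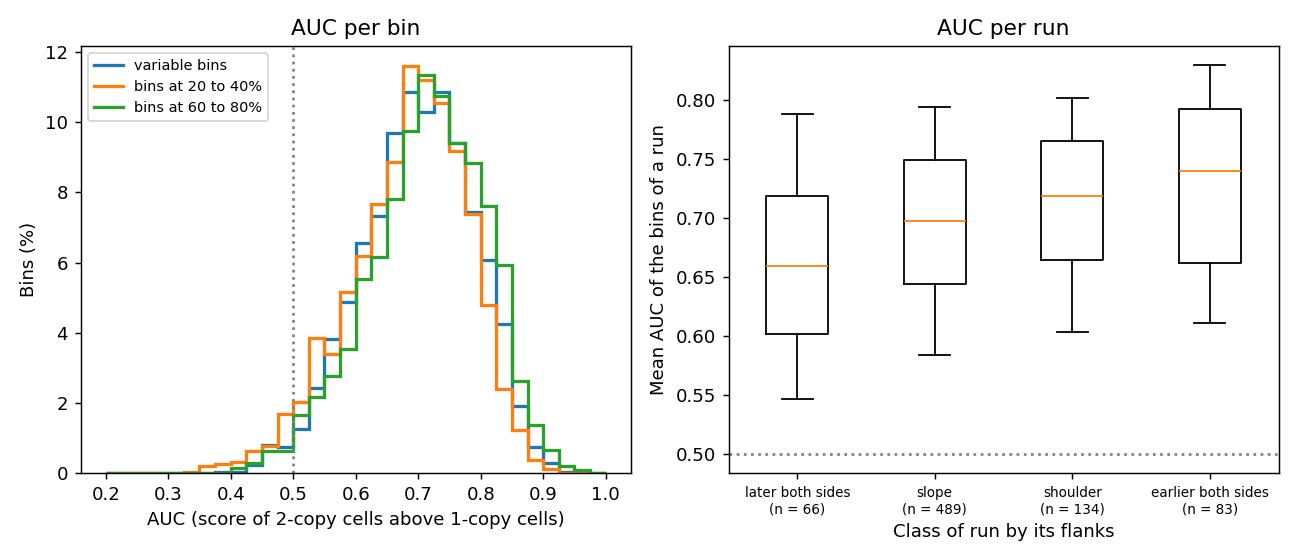
Left, the percent of bins at each AUC for variable bins and for bins 2-copy in 20% to 40% and 60% to 80% of cells; the dotted line marks 0.5. Right, the mean AUC of each run of adjacent variable bins by the class of its flanks, with boxes from the 25th to the 75th percentile, the median as a line and whiskers at the 10th and 90th percentiles. The 3 curves on the left overlap, and on the right the median rises from 0.659 for runs with late flanks to 0.740 for runs with early flanks.

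What a cell did in one variable bin told more about the bins beside it than about the rest of the genome. Pairs of adjacent variable bins had equal states in a median of 96.4% of cells. At 200 kb the median was 87.5%, at 400 kb 78.6%, at 1000 kb 66.1% and at 2000 kb 58.9%. Variable bins on different chromosomes (7229385 pairs) had equal states in 55.4% of cells. After the score was removed from the states, the median correlation across cells was 0.929 at 40 kb, 0.722 at 200 kb, 0.520 at 400 kb, 0.234 at 1000 kb and 0.0708 at 2000 kb, against 5.97e-05 between chromosomes. The percent of equal states reached the level between chromosomes between 2000 and 10000 kb. The score is itself a mean over the bins of the other chromosomes. Its removal therefore in part fixes a median correlation near 0 between chromosomes, and nothing is concluded from that value. Calls of neighbouring bins come from one segmentation of the same library, which smooths over short distances, and its part in these values was not tested.

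**Figure D3:**
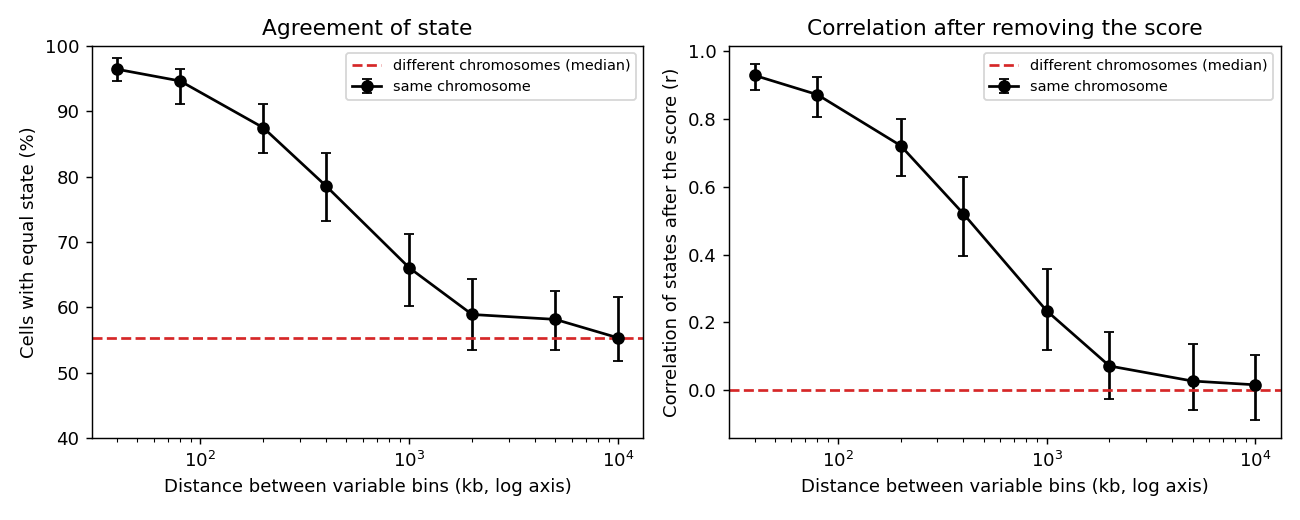
Left, the percent of cells with equal state in pairs of variable bins by their distance in kb (log axis); right, the correlation of states across cells after the score was removed. Points are medians over pairs, bars run from the 25th to the 75th percentile, and the dashed line is the median for bins on different chromosomes. Agreement falls from 96.4% at 40 kb to 55.4% at 10000 kb, the level between chromosomes.

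The second question was the size of the domains. The 4032 bins formed 779 runs of adjacent variable bins, with a median length of 160 kb, a mean of 207 kb and a maximum of 1600 kb. A single bin made up 89 runs, and 97 runs of at least 10 bins held 34.1% of all variable bins. The mean 2-copy share of the 5 bins (200 kb) on each side was used to class them. With one flank above 60% and the other below 40%, 489 runs (62.8%) lay on a slope between early and late chromatin. A further 83 runs had both flanks above 60% and 66 had both below 40%, so that the variable run was a local dip or a local peak of the profile. The remaining 134 were shoulders, with at least one flank itself between 40% and 60%, and 7 had no bins in the table beside one end.

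Length made little difference to how far a run followed the score. Median AUC was 0.701 for runs of 1 bin, 0.696 for 2 to 4 bins, 0.704 for 5 to 9 bins and 0.710 for 10 or more. Spearman's rho of length and AUC over the 779 runs was 0.0268. The class of the flanks went with a larger difference: the median was 0.740 for runs between early flanks, 0.697 for slopes and 0.659 for runs between late flanks, although the ranges overlapped. Long runs were more often split within a cell, which their length itself favours because more bins have to share a state. All bins of a run shared 1 state in a median of 89.3% of cells for runs of 2 to 4 bins, and in 71.4% for runs of 10 or more.

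The longest run, chr5:51000001-52600000, covered 40 bins. It had 13 cells with every called bin 2-copy, 11 with every bin 1-copy and 32 with both states, with a median of 1 switch between them and at most 4. The fully replicated cells had a median score of 61.5% (46.0% to 67.2%) and the fully unreplicated ones 49.6% (42.3% to 61.5%), so the 2 groups of cells overlapped in score. Its left flank was 2-copy in 25.4% of cells and its right flank in 62.1%.

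**Figure D4:**
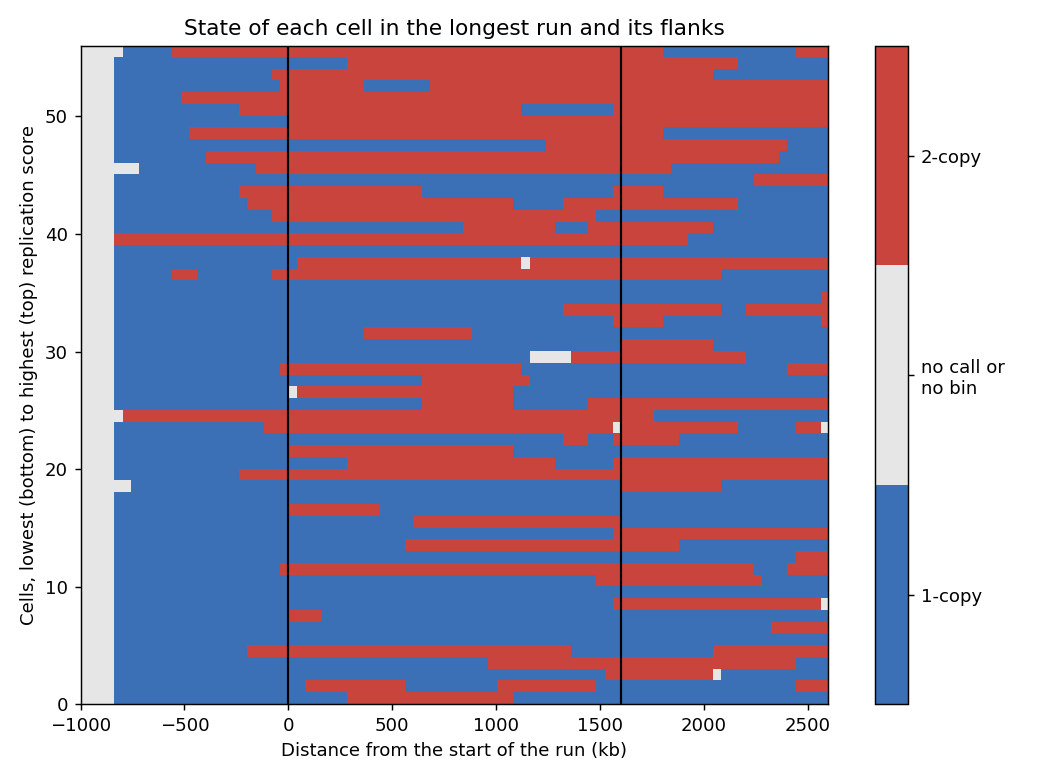
State of each of the 56 cells (rows, ordered by replication score from bottom to top) along the longest run, between the black lines, and 1000 kb on each side, by distance in kb from its start; red is 2-copy, blue is 1-copy, grey is no call or a bin not in the table. The 13 rows that are red along the whole run have scores of 46.0% to 67.2% and the 11 blue ones 42.3% to 61.5%.

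The next 9 runs are listed with their mean AUC. No error over cells is given for the AUC of a run. Whether single domains differ in their relation to the score was not tested. On chromosome 2, chr2:165680001-166760000 (27 bins), which holds the sodium channel genes SCN1A, SCN9A and SCN7A, had a mean AUC of 0.699. Its 15 fully replicated cells had a median score over the other chromosomes of 57.6%, against 54.7% in its 13 fully unreplicated cells. The run chr2:149800001-150640000 (21 bins), with the gene RND3, had early flanks. Its mean AUC was higher, 0.846, with medians of 61.1% in 20 replicated and 45.7% in 14 unreplicated cells. Both of these runs had a similar mean 2-copy share, 47.7%.

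Early flanks on both sides were found at chr2:71760001-72680000 (AUC 0.791), which holds CYP26B1, a retinoic-acid-degrading enzyme, and most of EXOC6B, a subunit of the exocyst. They were also found at chr7:88800001-89720000 (AUC 0.767), with most of ZNF804B, and at chr2:188120001-188960000 (AUC 0.793), with GULP1, an adaptor for engulfment. The run chr11:83600001-84440000 lies wholly inside DLG2, a synaptic scaffold gene, and also had early flanks, but its AUC was 0.603. The others of the 10 were slopes: chr3:119920001-120800000 (0.667), chr5:99480001-100320000 (0.686) and chr3:121400001-122200000 (0.763).

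Among runs of at least 10 bins, the lowest AUC was 0.462 at chr3:139320001-139760000. There the 18 fully replicated cells had a median score of 51.2% and the 26 fully unreplicated cells 55.1%, the reverse of the usual order. The highest was 0.860 at chr20:4520001-5080000, with 58.5% in 21 replicated and 47.6% in 20 unreplicated cells. These 2 runs were picked by their values from 97, and no test is given.

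The third question was gene content. Variable bins lay between early and late bins in the share with a gene, in gene starts and in base composition. They also did so in the mean percent of a bin covered by genes, 63.5% in variable, 70.4% in early and 52.6% in late bins. The median, near its upper limit in the first 2 classes, was 99.75%, 97.1% and 60.5% in the same order. A gene of any type overlapped 80.2% of variable bins, against 89.4% of early and 70.1% of late bins, and a protein-coding gene 53.97%, against 74.1% and 40.3%. They held 15.7 gene starts per Mb, against 25.5 in early and 13.1 in late bins, and 4.49 protein-coding starts per Mb, against 9.83 and 2.80. Median GC content was 38.9% (quartiles 36.7% to 42.1%), nearer to that of late bins (38.3%) than of early bins (41.2%). The median count of CG dinucleotides per kb was 7.11, 9.60 and 6.75 in variable, early and late bins. The GC content and the gene starts of variable bins each lay between those of early and late bins on 10 of the 11 chromosomes, with chromosome 2 the exception for GC and chromosome 7 for gene starts.

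Within the variable bins, those with low AUC more often held a protein-coding gene. Split into 3 groups by AUC, the 1343 bins with the lowest values held a protein-coding gene in 62.5% of bins, the 1343 in the middle in 50.6% and the 1346 with the highest in 48.9%. Gene starts per Mb were 18.3, 14.3 and 14.6 in the same order. Spearman's rho with AUC over the 4032 bins was -0.0606 for GC and -0.0476 for the percent covered by genes. Neighbouring bins share their calls, so these are descriptions. Runs of 10 or more bins had a lower median GC (38.02%) than runs of 1 to 4 bins (39.9%).

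Some genes spread over many variable bins. CTNNA3, an alpha-catenin of the heart, had 22 of its 48 bins variable, DLG2 21 of 54, TENM2, a teneurin of synapses, 20 of 25, and ERBB4, a receptor tyrosine kinase, 19 of 29. All 15 bins of TRHDE, a peptidase that degrades thyrotropin-releasing hormone, were variable. The median TPM was 0 for CTNNA3, TENM2 and ERBB4, 0.02 for TRHDE and 12.04 for DLG2. AUTS2, a neurodevelopmental gene, had 17 of 31 bins variable and a median TPM of 34.8.

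Gene lists were read by where their members lay, a gene being placed in variable bins when at least 50% of its bins were variable. Of the 28340 genes of the 11 chromosomes with a copy state, 2644 (9.33%) were so placed. Replication factors had 2 of 32 members there (6.25%), TOPBP1, a checkpoint and initiation scaffold, and RFC5, a subunit of the PCNA clamp loader. In early bins lay 90.6% of the replication factors, against 64.3% of all genes, coding and non-coding. Protein-coding genes alone numbered 7049 in early, 775 in variable and 1582 in late bins. The shares of all genes are therefore not a like baseline for lists of protein-coding genes. The ATR and fork protection list had 1 of 14, HUS1, of the 9-1-1 checkpoint clamp. None of 16 mitotic and G2 genes and none of 4 genes of nucleotide and histone supply lay in variable bins, and RPS7 was the 1 of 32 ribosomal protein genes. These lists are small, and no test was made against the 9.33% of all genes.

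Further lists, some of them families clustered in the genome, are set beside the share of all genes, coding and non-coding, 9.33%. Of 78 cadherin and protocadherin genes, 38 (48.7%) lay in variable bins. These were not spread over the genome: 16 stood in the run chr5:140840001-141040000 and 22 in chr5:141400001-141560000, so the families' share rests on 2 runs of 200 and 160 kb in the protocadherin clusters, which encode neuronal cell-surface proteins. The first run was wholly 2-copy in 27 cells and wholly 1-copy in 25, with an AUC of 0.759, and the second in 23 and 24 cells, with an AUC of 0.736. Olfactory receptor genes had 35 of 259 in variable bins (13.5%), of which 8 were in chr11:6120001-6880000, a peak between late flanks. Zinc finger genes had 18 of 147 (12.2%), 7 of them in chr12:132920001-133200000 near the end of the chromosome. Solute carrier genes had 19 of 182 (10.4%), and long intergenic RNAs named LINC 126 of 1069 (11.8%). Apart from the cadherin and protocadherin genes, these shares of 10.4% to 13.5% were near the 9.33% of all genes, and no test was made.

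The last question was RNA. Genes of variable bins were more often silent than those of early bins. A spliced TPM above 0 in over 50% of cells was found for 446 of 2644 genes (16.9%), against 28.6% of genes in early bins and 9.97% in late bins. For protein-coding genes the shares were 49.2% of 775, 63.5% of 7049 and 34.9% of 1582. Among those expressed protein-coding genes, the median of the genes' median TPM was 18.7 in variable, 25.5 in early and 18.9 in late bins. Unspliced RNA, which was counted over introns and has no length scale, was above 0 in over 50% of cells for 23.03% of genes in variable bins, 26.01% in early and 18.4% in late bins. No test was made over genes, which share bins and cells.

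The most abundant RNA from variable bins was that of RPS7, which had a median of 1082 TPM (456 to 1786 over 56 cells) in a bin that was 2-copy in 45.5% of cells. NDUFB4 followed with 335 (133 to 653), STRAP, which assembles with the SMN complex, with 223 (81.4 to 504), CCNG1, a p53-induced cyclin, with 211 (17.4 to 655), and SSBP1, the mitochondrial single-strand DNA-binding protein, with 197 (47.5 to 363). The 10 were completed by SLC38A1, a glutamine transporter (174), FKBP1A, a prolyl isomerase that binds rapamycin (164), HELLS, a chromatin remodeller needed for DNA methylation (157), TMEM230 (154) and ACTR3, a subunit of the Arp2/3 complex (154). All 10 were above 0 in every cell, and the lowest single values were 0.38 TPM for TMEM230 and 17.4 for CCNG1.

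The genes of the longest runs ranged from silent to abundant. In the sodium channel run, the medians were 0 TPM for SCN1A, SCN7A and GALNT3, 0.75 for SCN9A and 21.6 for TTC21B, a ciliary transport protein. ZNF804B was at 0 in all 56 cells. The run chr3:119920001-120800000 held 8 protein-coding genes, among them NDUFB4, GSK3B, a kinase of the Wnt and insulin pathways (46.7 TPM), FSTL1, a secreted glycoprotein (45.4), and LRRC58 (42.9). The neighbouring run chr3:121400001-122200000 held 12, among them POLQ, the polymerase of theta-mediated end joining (15.1), IQCB1 (37.3) and CD86, a costimulatory protein of immune cells that was at 0 in every cell.

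Summed over all genes of variable bins, spliced RNA made up 3.43% to 5.93% of the TPM of the 11 chromosomes per cell (median 3.99%). It did not climb with the share of variable bins replicated: Pearson's r over 56 cells was -0.290 and Spearman's rho was -0.295, with rho -0.306 in cells up to 65 and 0.0965 in later cells. For unspliced RNA the range was 6.60% to 12.4% (median 9.41%), r was -0.182 and rho -0.197, with -0.0448 and -0.0507 within the sets. The 2 sets differed in the sum itself, with spliced medians of 4.19% and 3.81% and unspliced medians of 9.98% and 8.90%. The points share a library set and the TPM total, so no p is given.

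Copy state and RNA of the same gene were then compared between cells, as the study did, in the 55 cells scored 40% to 70%. Genes entered when over 50% of cells had a value above 0, with a call in at least 50% and neither state in over 80%. Of the genes of variable bins, 448 could be tested in spliced and 615 in unspliced RNA. The filter on low values was applied to all cells together and did not use the state.

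In spliced RNA, 44 of 448 genes of variable bins (9.82%) had p under 0.05 in the two-sided Wilcoxon rank-sum test, against 8.3% of all 2711 genes tested. Of these, 29 were higher in 2-copy cells, where 5.68% of all genes were called, and 15 in 1-copy cells, where 2.62% were. In unspliced RNA the count was 42 of 615 (6.83%), against 6.51% of all 3457 genes tested, with 26 higher at 2 copies (3.73% of all genes) and 16 higher at 1 copy (2.78% of all genes). The shares of the variable bins were close to those of all genes tested. After Benjamini-Hochberg adjustment over all genes tested, no gene passed 0.05 in either RNA (0% of all genes). When the unspliced counts were rounded and tested with edgeR (quasi-likelihood), 119 of 615 genes had p under 0.05 (17% of all genes) and 39 an adjusted p under 0.05 (4.89% of all genes). With DESeq2 size factors in edgeR these were 122 (17.1% of all genes) and 40 (4.95% of all genes). The first calls split nearly evenly, 57 to 62 between 2-copy and 1-copy cells, where more of the Wilcoxon calls were at 2 copies. Those of all other genes tested split 277 to 192. The difference between these splits was not tested. With the mean of each set of cells subtracted, the Wilcoxon test called 41 spliced genes (9.15%, against 7.78% of all other genes tested) and 51 unspliced genes (8.29%, against 7.25%). In both RNAs 239 genes could be tested, of which 26 had p under 0.05 in spliced and 15 in unspliced RNA. In both it was 4, all 4 in the same direction. The share called in both was not computed over all genes, and both RNAs come from the same cells and copy calls. Nothing is therefore concluded from the 4.

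RANBP2, a nucleoporin with E3 SUMO ligase activity, was the gene of variable bins with the lowest p in spliced RNA. In 27 cells with 2 copies its TPM ran from 32.8 to 132 (median 55.7), and in 28 cells with 1 copy from 5.31 to 317 (median 36.8). The ranges overlapped, and the highest value was in a 1-copy cell. RANBP2 has near-identical partial copies in the genome (the RGPD genes), so its reads are uncertain. The difference of mean log2(TPM + 1) was 0.62 ± 0.21 (SE), with a permutation p of 0.00046 and an adjusted Wilcoxon p of 0.327. It was positive in both sets, 0.74 and 0.50, but in unspliced RNA it was -0.10.

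The others that were higher at 2 copies in spliced RNA were PRXL2A, a redox-active peroxiredoxin-like protein, MRPL44, a protein of the mitochondrial ribosome, ACADL, which oxidises long-chain fatty acids, and OSER1. PRXL2A had a median of 4.98 TPM in 28 2-copy cells (0 to 39.7) and 0.33 in 27 1-copy cells (0 to 25.5). MRPL44 had 30.9 (0 to 82.0) against 19.1 (0 to 57.04). Both genes overlapped widely between states, with log2 differences of 1.55 ± 0.42 and 0.91 ± 0.37 (SE). ACADL had 3.13 (0 to 17.8) against 0 (0 to 48.2) and OSER1 38.6 (0 to 101.5) against 15.6 (0 to 60.9). The permutation p of these 4 ran from 0.0009 for PRXL2A to 0.0033 for OSER1, and the adjusted Wilcoxon p from 0.327 to 0.383. In unspliced RNA the difference of OSER1 was 0.34 (Wilcoxon p 0.680).

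At 1 copy the lowest p belonged to GPRC5B, an orphan G-protein-coupled receptor. Its median was 40.5 TPM in 33 1-copy cells (5.15 to 84.2) and 12.2 in 21 2-copy cells (0 to 70.1), a log2 difference of -1.46 ± 0.42 (SE; permutation p 0.00214, adjusted Wilcoxon p 0.383). COL4A4, a chain of basement membrane collagen, had 11.03 (3.69 to 51.6) at 1 copy and 5.82 (0 to 36.5) at 2 copies. It was 1 of the 4 genes with p under 0.05 in both RNAs, with a log2 difference of -1.17 in spliced and -1.76 in unspliced RNA. The non-coding HELLPAR and RP11-175O15.1 and CAVIN4, a muscle protein of caveolae, completed the 5. HELLPAR, with medians of 1.08 TPM at 2 copies and 1.895 at 1 copy, depended on the library set: its Wilcoxon p was 0.00841 over all 55 cells and 0.705 with the mean of each set subtracted.

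In unspliced RNA, the lowest p at 2 copies was that of AC006994.2, a non-coding gene that overlaps ACADL, so that reads of the pair cannot be told apart without strand. Its median was 17.8 counts in 18 2-copy cells (0 to 92.4) and 0 in 33 1-copy cells (0 to 260), with a permutation p of 9e-05 and an adjusted Wilcoxon p of 0.328. The log2 difference was 0.91 in cells up to 65 and 4.01 in later cells. DCLRE1C, the Artemis nuclease of V(D)J recombination, reached 306 counts at the median of 23 2-copy cells (23.4 to 536) and 119 at that of 30 1-copy cells (0 to 511), a log2 difference of 1.28 ± 0.38 (SE; permutation p 0.0003). In spliced RNA the difference of DCLRE1C was 0.45 (Wilcoxon p 0.290). PURPL, a p53-regulated long non-coding RNA, had 684 (3.20 to 2049) against 234 (0.2 to 2083), and it was also higher at 2 copies in spliced RNA, by 1.69 on the log2 scale. RP11-268P4.5 and ZMIZ1-AS1 completed the 5, with permutation p of 0.00273 and 0.00386.

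Higher at 1 copy was REV1, the deoxycytidyl transferase of translesion synthesis, with a median of 141 unspliced counts in 22 1-copy cells (21 to 468) and 38.2 in 33 2-copy cells (0 to 588). The log2 difference was -2.40 ± 0.54 (SE; permutation p 0.00054, adjusted Wilcoxon p 0.328). It was -2.15 and -2.65 within the 2 sets and -0.82 in spliced RNA, where the Wilcoxon p was 0.112. The others were RP11-719N22.2, MEIKIN, a meiotic kinetochore protein, AC079613.1 and BDNF, a neurotrophin, all with medians of at most 2.40 counts in either state. RP11-719N22.2 had a Wilcoxon p of 0.00185 over all cells and 0.463 with the mean of each set subtracted.

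Few members of the lists that lay in variable bins had p under 0.05 between copy states. Over all genes tested, 5.68% were called higher at 2 copies and 2.62% higher at 1 copy in spliced RNA, and 3.73% and 2.78% in unspliced RNA. No test was made over the lists. TOPBP1 had a log2 difference in spliced RNA of -0.17 ± 0.23 (SE), RFC5 0.36 ± 0.32, HUS1 0.19 ± 0.40 and RPS7 0.03 ± 0.12. None of these 4 had p under 0.05 in spliced RNA. Of 13 zinc finger genes tested in spliced RNA 1 was higher at 2 copies, ZNF84, which was also 1 of 8 in unspliced RNA, with differences of 1.09 ± 0.61 and 1.23 ± 0.55 (SE) and adjusted Wilcoxon p of 0.501 and 0.706. Of 9 solute carrier genes 2 were higher at 2 copies in spliced RNA, SLC39A10, a zinc importer (0.51 ± 0.39), and SLC23A2, a vitamin C transporter (1.04 ± 0.45). Of 12 in unspliced RNA 1 was higher at 1 copy, SLC25A36, a mitochondrial pyrimidine nucleotide carrier (-2.16 ± 0.87). The 33 protocadherin genes tested in unspliced RNA had none with p under 0.05 and a median difference of -0.08, and they share long overlapping transcripts. Of LINC RNAs 3 of 46 were higher at 2 copies in unspliced RNA, among them LINC01551 (1.64 ± 0.67). The median over all genes of variable bins tested was 0.06 in spliced and 0.04 in unspliced RNA.

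Among the 10 most abundant genes, TMEM230 and ACTR3 had a p under 0.05, each in 1 RNA. TMEM230 was higher at 2 copies in spliced RNA by 0.26 ± 0.41 (SE, Wilcoxon p 0.0418, adjusted p 0.574) and ACTR3 in unspliced RNA by 2.07 ± 0.78 (SE, Wilcoxon p 0.0146). RPS7 and NDUFB4 had spliced differences of 0.03 ± 0.12 and 0.03 ± 0.15, each far under the value of 1 that a doubling of the RNA level would give.

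Pooled over genes, the difference was small and could be resolved. A linear model of log2(value + 1) with a term for each gene, each cell and the copy state gave 0.073 ± 0.024 (jackknife SE over 55 cells) for the 448 spliced genes of variable bins, a 1.05-fold higher value at 2 copies. For the 615 unspliced genes it gave 0.084 ± 0.033, or 1.06-fold. Both were more than 2 SE above 0 and far from a doubling of the RNA level. The time since a locus was copied and the lifetime of its RNA were not measured, so these values do not measure transcription. All other genes tested gave 0.074 ± 0.013 (2263 genes) and 0.110 ± 0.013 (2842 genes). The variable bins differed from them by -0.00062 ± 0.025 in spliced and by -0.027 ± 0.032 in unspliced RNA, less than 1 SE in each. Low genes enter with a pseudocount of 1, which makes their differences smaller than those of the values themselves. Without the filter on low values the spliced difference was 0.031 ± 0.010 (1399 genes, 1.02-fold), and that of all other genes was 0.031 ± 0.0051.

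The pooled difference within the sets was 0.045 ± 0.037 in cells up to 65 and 0.117 ± 0.026 in later cells for spliced RNA. For unspliced RNA it was 0.076 ± 0.052 and 0.094 ± 0.038. In cells up to 65 it therefore lay within 2 SE of 0 in both RNAs, and the difference between the sets was not tested. With a slope on the replication score for each gene it was 0.078 ± 0.025 and 0.080 ± 0.033, as large as without it.

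**Figure D5:**
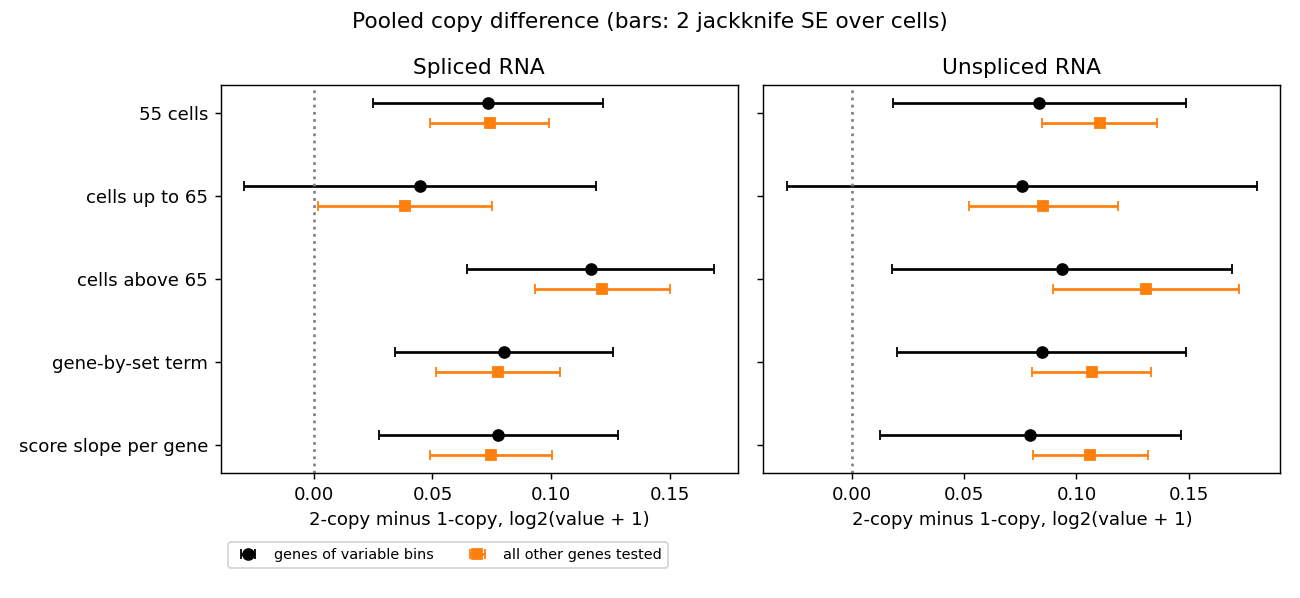
Pooled difference between 2-copy and 1-copy cells in log2(value + 1), for spliced RNA (left) and unspliced RNA (right), for genes of variable bins (black circles) and all other genes tested (orange squares), over 55 cells, within each set of cells and with 2 further terms; bars are 2 jackknife SE over cells. Black and orange intervals overlap in every row, and for genes of variable bins only those of cells up to 65 reach 0.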

How the data were processed

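The members, the gene lists and the tests were chosen with earlier results of these data known. DNA reads were mapped to hg38 by the authors (the submitters' processing notes name BWA 0.7.17-r1188), who then binarized 40-kb bins with AneuFinder and left out chromosomes that are abnormal in HAP1 and the X chromosome. The deposited state score is 1 for 2-copy, -1 for 1-copy and 0 for no call. For RNA the authors used ramdaq and featureCounts on GENCODE annotation. Spliced RNA is deposited as TPM. Unspliced RNA was made by the authors as gene-body minus exon reads, with negative values set to 0, and is deposited as fractional estimated counts. The authors describe down-sampling to a common library size, and the unspliced totals still differed between cells. RNA was taken mainly from the cytoplasm, so nuclear RNA may be under-represented. Strand use in counting is not stated in the sources read, so overlapping genes and near-identical copies are uncertain. Gene types came from GENCODE release 44 (99.8% of 30765 genes matched), sequences from RefSeq (GRCh38.p14) and GC content from hg38.

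DNA and RNA libraries with the same cell number were taken as 1 cell. Runs were joined only between adjacent bins. AUC, agreement, content and levels are descriptions. The test per gene was a Wilcoxon rank-sum test (two-sided, SciPy 1.17.1) of 2-copy against 1-copy cells, the kind of test the study used. Here its spliced input was the deposited TPM, where the methods describe read counts. Its unspliced input was the deposited counts, not scaled to the total of the cell. Genes above 0 in over 50% of cells were tested (the paper gives both 50% and 20%, and 20% was an alternative), at p under 0.05 and with Benjamini-Hochberg adjustment over the whole table. Named genes also have a two-sided permutation p of ranks (100000 permutations). edgeR 4.0.16 (quasi-likelihood, counts rounded to whole numbers, separate design per gene, TMM or size factors from DESeq2 1.42.0) was an alternative. The pooled model used a pseudocount of 1 and a jackknife over cells. Scripts were tested on simulated data. The text names the 10 longest runs with genes in them, the 5 genes per direction and RNA with the lowest Wilcoxon p, the 10 with the highest median TPM, and list members. Other genes and runs (those covering most variable bins, the extremes of AUC and the family clusters) were chosen after their values were seen.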

Additional observations from a re-analysis of the deposited data

How the results depend on the processing

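Of 41 alternatives, 30 stayed on the same side, within the same direction or within 1.5 times the count, 9 moved a value and 2 took a pooled difference to within 2 SE of 0. No value changed sign, but the unspliced calls, 26 higher at 2 copies and 16 at 1 copy, split 57 to 62 and 59 to 63 in the edgeR fits. With counts divided by the unspliced total of the cell they split 30 to 12. With limits of 45% to 55% there were 1803 variable bins in place of 4032, and the limits themselves fix this. Counting gene starts in place of overlaps, 39.1% of variable bins held a gene in place of 80.2%. Without a filter on low values, the median of the genes' median TPM was 0 in place of 15.7. Without that filter the copy-state test called 69 spliced genes in place of 44 and 77 unspliced genes in place of 42, from more genes tested, so that the shares fell to 4.93% and 5.73% (5.07% and 5.14% of all other genes). Unspliced calls were 64 (6.88%) for genes with any overlap with a variable bin and 24 (6.12%, against 6.76% of other genes) for genes above 0 in over 80% of cells. edgeR called 119 (TMM, 19.3%) and 122 (DESeq2 size factors, 19.8%), against 16.5% of other genes, and the cause was not tested. With the score removed from the ranks, 30 spliced (6.70%) and 28 unspliced genes (4.55%) were called, against 6.23% and 5.10% of all other genes tested. In cells numbered up to 65 alone, the pooled difference was 0.045 in spliced and 0.076 in unspliced RNA, from fewer cells. Without the filter on low values it was 0.031 and 0.066. No paired analysis was possible because each comparison is between cells, and a cell number is shared only by the DNA and the RNA library of that same cell. DNA read depth was not in the tables, so the precision of single calls is unknown, and no count interval is given.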
